A study of Mus musculus with 24 samples.

Results

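Choline kinase alpha (Chka) and the other genes of phosphatidylcholine and phosphatidylethanolamine synthesis were followed in livers of male wild-type C57BL/6 mice after 6 weeks on 1 of 4 diets. The gene set named Chka, Chkb, Etnk1, Etnk2, Pcyt1a, Pcyt2, Chpt1, Cept1, Pemt and Lpcat3. It was selected on a measured value, the lower Chka level in CSO than in the other oil diets. The count table used here holds rows for 9 of the 10 named genes among 13686 genes in all, and Chkb, the second choline kinase gene, has no row in it and was not analysed here. The diets were enriched in cottonseed oil (CSO, 6 libraries), olive oil (OO, 6 libraries) or safflower oil (SFO, 5 libraries), and the remaining 6 libraries came from mice on chow. A further SFO library, replicate 4, was left out by the submitters as an outlier with possible contamination. The labels give the oil but not the fat content of each diet, the hour of collection, the feeding state or the cage, so an oil cannot be told apart from other differences between the oil diets and chow. Each library is labelled as a separate sample, and nothing in the labels says how the mice were housed, so a p-value here reflects only how far these libraries spread.

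Phosphatidylcholine and phosphatidylethanolamine are the main phospholipids of cell membranes, and the liver also needs phosphatidylcholine for the surface of lipoproteins and for bile. In the CDP-choline and CDP-ethanolamine routes a kinase phosphorylates choline or ethanolamine, a cytidylyl transferase activates the product with CTP, and a transferase joins it to diacylglycerol. The liver has a further route to phosphatidylcholine, in which the product of Pemt methylates phosphatidylethanolamine. The acyl chains are exchanged afterwards by acyltransferases such as Lpcat3.

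Levels are counts relative to library size (CPM), with library sizes scaled by edgeR's trimmed mean of M values. The libraries were made from the 3′ ends of transcripts, so a level was compared only within a gene. The library totals ran from 5.43e6 to 1.49e7 counts. All 10 hepatocyte markers were detected in every library, with Alb, the gene of albumin, between 79221 and 144458 CPM. Muscle transcripts were plentiful in 4 libraries, in which Acta1, the gene of skeletal muscle actin, passed 100 CPM: it was at 314 CPM in CSO 1, against 461, 887 and 186 CPM in chow 3, 4 and 5. The summed level of all 12 muscle markers ran from 3.33 to 1387 CPM in CSO, from 0.534 to 19.1 CPM in OO and from 0.359 to 63.7 CPM in SFO, against 9.84 to 3056 CPM in chow. In these bulk livers, fewer cells of a type and less RNA per cell cannot be told apart.

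The promoters of the 3 genes whose levels differed most between diets are shown here as RefSeq gives them on GRCm38.p6, from 250 bases before to 50 bases after the annotated start, so that known promoter elements can be read beside the levels below. Capitals mark matches, on either strand, to the GC box GGGCGG, the CCAAT box CCAAT and the sterol element TCACNCCAC. The Pcyt1a stretch is the one of the first of its annotated starts.
Chka (chr19:3851523-3851822, plus strand): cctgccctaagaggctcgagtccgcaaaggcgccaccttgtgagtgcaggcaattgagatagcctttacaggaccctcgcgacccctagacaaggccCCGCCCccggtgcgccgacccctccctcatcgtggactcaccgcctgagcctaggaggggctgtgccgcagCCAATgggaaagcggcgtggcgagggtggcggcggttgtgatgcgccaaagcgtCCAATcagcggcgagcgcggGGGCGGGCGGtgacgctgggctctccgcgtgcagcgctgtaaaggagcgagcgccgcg
Etnk2 (chr1:133363322-133363621, plus strand): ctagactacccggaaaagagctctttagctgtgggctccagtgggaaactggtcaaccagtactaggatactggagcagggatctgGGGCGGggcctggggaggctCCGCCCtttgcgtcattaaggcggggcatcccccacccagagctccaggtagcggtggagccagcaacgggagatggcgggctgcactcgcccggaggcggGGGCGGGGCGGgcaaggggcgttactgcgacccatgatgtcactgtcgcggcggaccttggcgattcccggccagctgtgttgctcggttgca
Pcyt1a (chr16:32430671-32430970, plus strand): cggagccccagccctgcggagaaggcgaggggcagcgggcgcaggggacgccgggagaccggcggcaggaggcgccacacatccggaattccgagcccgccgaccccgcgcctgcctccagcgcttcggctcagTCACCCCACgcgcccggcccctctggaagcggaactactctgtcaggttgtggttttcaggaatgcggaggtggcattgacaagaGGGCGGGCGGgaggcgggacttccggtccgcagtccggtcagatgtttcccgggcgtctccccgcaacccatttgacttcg

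The Chka promoter held 2 CCAAT boxes, at -82 and -28 from the start, and 3 GC boxes, of which those at -8 and -4 overlap. The Etnk2 promoter held 4 GC boxes and none of the other motifs searched. The Pcyt1a promoter held 1 sterol element at -116 and 2 overlapping GC boxes. Among 32851 RefSeq promoters of the same length, 37.4% held a CCAAT box, 35.7% a GC box and 1.24% the sterol element. The E-box CACGTG of the core clock factors, found in 7.15% of all promoters, and the D-box TTANGTAA of Dbp and its relatives, found in 2.32%, had no match in the promoter rows of the 8 of these genes that RefSeq's table holds. These matches describe letters in a window and were not tied to any binding in these livers.

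Chka was low in every CSO library. The Chka protein carries out the first step of the CDP-choline route, the phosphorylation of choline. Its level in CSO livers was 4.89 CPM at the lowest, 10.7 at the median and 14.8 at the highest. In OO livers the lowest, median and highest Chka levels were 11.2, 43.3 and 80.1 CPM. The 5 SFO livers had 59.1, 11.7, 37.1, 100.2 and 52.9 CPM, and the chow livers 17.8 CPM at the lowest, 26.05 at the median and 40.8 at the highest. All 6 CSO livers lay below all 6 chow livers, while 3 of the 6 CSO livers lay below every OO liver and 3 of the 6 below every SFO liver. The overlap with the other oils came from OO 3 and SFO 2, which were as low as CSO livers. The count behind the CSO levels was 62 to 172 reads a library.

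Chka averaged 10.3 ± 3.79 CPM in CSO, 43.6 ± 25.9 CPM in OO (SD, n = 6 each) and 52.2 ± 32.5 CPM in SFO (SD, n = 5), against 27.2 ± 7.53 CPM in chow (SD, n = 6). On the log2 scale of the edgeR fit, the difference was -2.08 ± 0.42 (SE) between CSO and OO and -2.34 ± 0.44 between CSO and SFO. These are the values that chose the genes and are given without a test. The differences from chow, which share the CSO libraries with that choice, are given in the same way: -1.40 ± 0.41 for CSO, 0.68 ± 0.41 for OO and 0.94 ± 0.42 for SFO. OO and SFO livers were on both sides of the chow range, with 3 of the 6 OO livers and 3 of the 5 SFO livers above every chow liver and 1 liver of each below it. Leaving out any 1 library kept the difference between CSO and the averaged OO and SFO diets, -2.21 ± 0.40, between -2.34 and -2.02. It was -2.30 without the 4 libraries with Acta1 over 100 CPM.

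**Figure D1:**
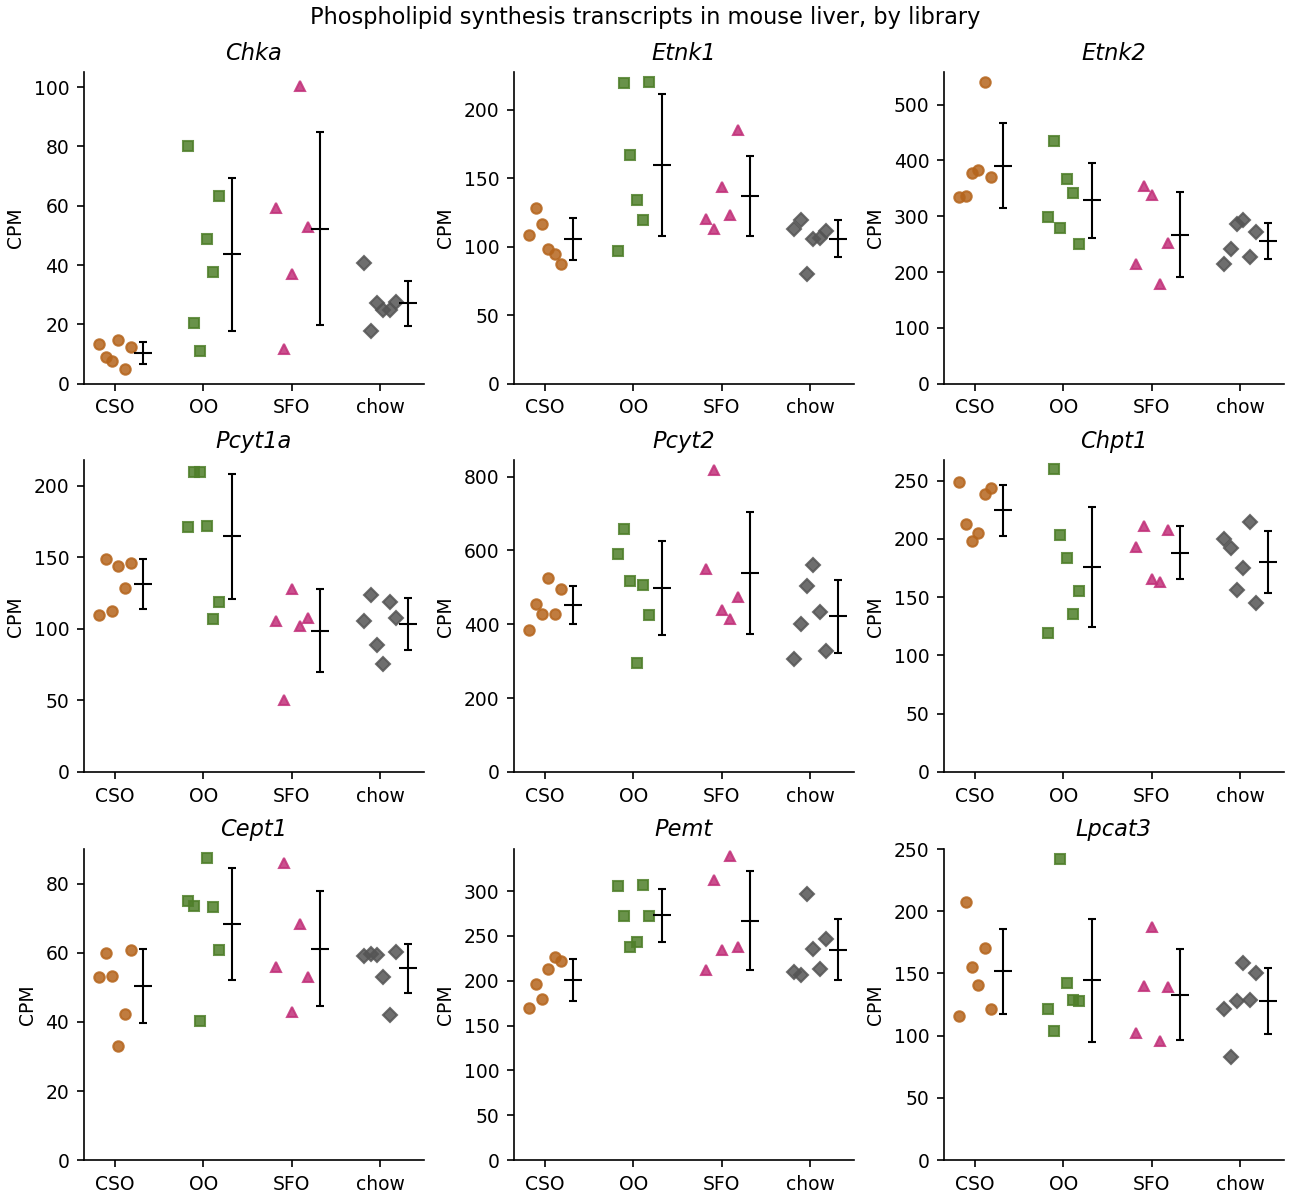
Level of the 9 genes in CPM (linear axis from 0) in each library, with diets from left to right as CSO, OO, SFO and chow, and the mean with its SD as a black bar beside the points (n = 6, SFO n = 5). The 6 Chka points of CSO sit between 4.89 and 14.8 CPM, below all chow points, and the 6 Etnk2 points of CSO sit between 335 and 540 CPM, above all chow points.

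Neither ethanolamine kinase gene was lower in all CSO than in all chow livers. Etnk2, which encodes an ethanolamine kinase of liver, had its highest mean level in CSO. The lowest, median and highest Etnk2 levels were 335, 374 and 540 CPM in CSO, against 214, 257 and 293 CPM in chow, and the groups did not overlap. Of the 8 genes other than Chka, only Etnk2 separated all CSO from all chow livers, where 1.44% of the 11971 tested genes did so in either direction. Chka did so too, but it was chosen for its low level in CSO and is not counted. The log2 difference of Etnk2 was 0.61 ± 0.16 (SE), and it missed the threshold of 0.05 in edgeR's quasi-likelihood test over all 4 diets (Benjamini-Hochberg adjusted p = 0.0905). It passed with DESeq2 (adjusted p = 0.0172), with limma voom (adjusted p = 0.00940) and in an edgeR fit of CSO and chow alone (adjusted p = 0.00356). The authors' deposited DESeq2 table, which has the same log2 difference and SE as the DESeq2 run here, lists it with an adjusted p of 0.0335. It is not a separate result.

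In OO livers Etnk2 ran from 249.998 through a median of 320 to 435 CPM, a log2 difference from chow of 0.36 ± 0.16 (edgeR adjusted p = 0.250). The 5 SFO livers had 215, 354, 338, 178 and 252 CPM of Etnk2, and the log2 difference from chow was 0.06 ± 0.17 (edgeR adjusted p = 0.988). Both groups overlapped with chow. Etnk1, a more widely expressed ethanolamine kinase, ran from 87.5 through 104 to 129 CPM in CSO, and from 97.3 through 151 to 220 CPM in OO. The SFO livers had 120, 113, 143, 123 and 185 CPM of Etnk1, against 79.9 through 109 to 119 CPM in chow. In 4 of the 6 OO livers and in 4 of the 5 SFO livers Etnk1 exceeded every chow liver. The log2 difference between OO and chow was 0.59 ± 0.20 (edgeR adjusted p = 0.0885). Among omissions of 1 library, only that of OO 1, the OO liver with the least Etnk1, brought it past the threshold (edgeR adjusted p = 0.0453). The difference also passed, narrowly, with DESeq2 (adjusted p = 0.04997). Between SFO and chow it was 0.37 ± 0.21 (edgeR adjusted p = 0.742) and between CSO and chow -0.0031 ± 0.20 (edgeR adjusted p = 0.9996).

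The cytidylyl transferases catalyse the second step, which limits the rate of the CDP-choline route for Pcyt1a and acts in the ethanolamine route for Pcyt2. Pcyt1a was 107 CPM at the lowest, 171 at the median and 210 at the highest in OO livers, against 75.6, 107 and 123 CPM in chow livers. Of the 6 OO livers, 4 exceeded every chow liver and the remaining pair, OO 5 and OO 6, fell within the chow range. The log2 difference was 0.67 ± 0.21 (edgeR adjusted p = 0.0610). Among omissions of 1 library, only those of OO 5 (edgeR adjusted p = 0.0313) and OO 6 (edgeR adjusted p = 0.0404), the OO livers with the least Pcyt1a, brought it past the threshold. It also passed with DESeq2 (adjusted p = 0.0328). In the authors' deposited DESeq2 table, which matches the DESeq2 run here in log2 difference and SE, its adjusted p is 0.0333.

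The SFO livers had 105, 50.3, 128, 102 and 107 CPM of Pcyt1a, a log2 difference from chow of -0.07 ± 0.22 (edgeR adjusted p = 0.988), and 4 of the 6 OO livers lay above all of them. The log2 difference between SFO and OO was -0.74 ± 0.22 (edgeR adjusted p = 0.0749). Among omissions of 1 library, only that of OO 5, the lowest OO liver, brought it past the threshold (edgeR adjusted p = 0.0327). It also passed with DESeq2 (adjusted p = 0.0352). In CSO livers Pcyt1a ran from 110 through 136 to 149 CPM, a log2 difference from chow of 0.35 ± 0.21 (edgeR adjusted p = 0.9996). The 3′ end of Pcyt1a overlaps that of Slc51a on the other strand by 567 bases in the GENCODE M21 annotation, and no source used here gives the strand setting of the counting.

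Pcyt2 had an SD within diets of 0.338 on the log2 scale, above 17.6% of the 5750 tested genes whose mean log2 CPM reached 4. Its lowest, median and highest levels were 384, 441 and 525.9 CPM in CSO livers and 296, 512 and 659 CPM in OO livers, while chow livers had 306, 416 and 561 CPM. The SFO livers ran from 413 through 474 to 818 CPM, with SFO 2 at the top. The log2 differences from chow were 0.10 ± 0.17 in CSO, 0.24 ± 0.17 in OO and 0.35 ± 0.17 in SFO, and the last had an unadjusted p of 0.0487 and an adjusted p of 0.639 with edgeR. No pair of diets was separated in Pcyt2.

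The transferases of the last step, Chpt1 for phosphatidylcholine and Cept1 for both lipids, showed smaller differences. Chpt1 ran from 198 through 226 to 249 CPM in CSO, from 119 through 170 to 260 CPM in OO and from 163 through 193 to 211 CPM in SFO, against 145 through 183 to 214 CPM in chow. Its log2 difference from chow was 0.32 ± 0.17 in CSO (edgeR adjusted p = 0.9996), and 3 of the 6 CSO livers exceeded every chow liver. Cept1 averaged 50.5 ± 10.8 CPM in CSO, 68.4 ± 16.2 CPM in OO and 61.2 ± 16.6 CPM in SFO, against 55.5 ± 7.16 CPM in chow (SD, n = 6, SFO n = 5). Its log2 differences from chow were -0.14 ± 0.25 in CSO, 0.30 ± 0.25 in OO and 0.14 ± 0.26 in SFO, with edgeR adjusted p-values of 0.9996, 0.608 and 0.983. The 3′ end of Cept1 overlaps that of Dennd2d by 771 bases.

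Pemt, the methyltransferase of the route from phosphatidylethanolamine, was lower in all 6 CSO livers than in all 6 OO livers. It ran from 170 through 204 to 227 CPM in CSO, against 238 through 272 to 306 CPM in OO, and 1.44% of the tested genes separated CSO from OO in either direction. The log2 difference was -0.44 ± 0.15. It belongs to the comparison that chose the genes and was not tested. The SFO livers had 212, 313, 235, 339 and 238 CPM of Pemt, and the chow livers ran from 206 through 225 to 297 CPM. The log2 difference from chow was -0.22 ± 0.15 in CSO (edgeR adjusted p = 0.9996), 0.22 ± 0.15 in OO (edgeR adjusted p = 0.520) and 0.19 ± 0.16 in SFO (edgeR adjusted p = 0.905).

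Lpcat3, which inserts polyunsaturated acyl chains into phosphatidylcholine and phosphatidylethanolamine, overlapped between all diets. It ran from 116 through 148 to 207 CPM in CSO, from 104 through 128 to 242 CPM in OO and from 95.8 through 139 to 188 CPM in SFO, against 82.6 through 128 to 158 CPM in chow. The log2 differences from chow were 0.24 ± 0.21 in CSO, 0.17 ± 0.21 in OO and 0.05 ± 0.22 in SFO, with edgeR adjusted p-values of 0.9996, 0.755 and 0.993. The 3′ end of Lpcat3 overlaps that of Emg1 by 334 bases.

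Of the 8 genes other than Chka, none passed an adjusted p of 0.05 in edgeR's test of any of 4 comparisons. All 8 had enough counts to be tested. The share of all tested genes that passed was 0.409% for CSO against chow, 2.64% for OO against chow, 0.835% for SFO against chow and 1.06% for SFO against OO. At an unadjusted p under 0.05, the 8 genes gave 1 gene (Etnk2) for CSO against chow, where 5.32% of all genes did so. They gave 3 genes (Pcyt1a, Etnk1 and Etnk2) for OO against chow, where 16.1% did so. They gave 1 gene for SFO against chow (Pcyt2), where 7.74% did so, and 1 for SFO against OO (Pcyt1a), where 15.3% did so.

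DESeq2 called 1 of the 8 genes for CSO against chow (Etnk2), 2 for OO against chow (Etnk1 and Pcyt1a), 0 for SFO against chow and 1 for SFO against OO (Pcyt1a). The share of the genes with an adjusted p that it called was 4.33%, 5.67%, 1.57% and 3.67% for those comparisons, and for CSO against chow its own filter left an adjusted p for 2542 genes. Limma voom called Etnk2 for CSO against chow, where it called 1.8% of the tested genes, and none of the 8 genes in the other 3 comparisons. The authors' deposited tables are also from DESeq2, and their log2 differences of the 8 genes match those of the DESeq2 run here. They have 1 of the 8 under 0.05 for CSO (Etnk2), 1 for OO (Pcyt1a) and 0 for SFO. The share of their genes under that threshold is 1.71%, 5.32% and 1.55%. None of the 8 genes separated all livers of OO or SFO from all livers of chow, or SFO from OO, where 1.75%, 1.59% and 1.11% of the tested genes did. None of the set separated CSO from SFO either, where 1.7% did. The median log2 difference over the 8 genes was 0.17 for CSO, 0.27 for OO and 0.10 for SFO against chow, beside -0.02, 0.07 and 0.01 over all tested genes, and -0.14 for SFO against OO, beside -0.04.

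**Figure D2:**
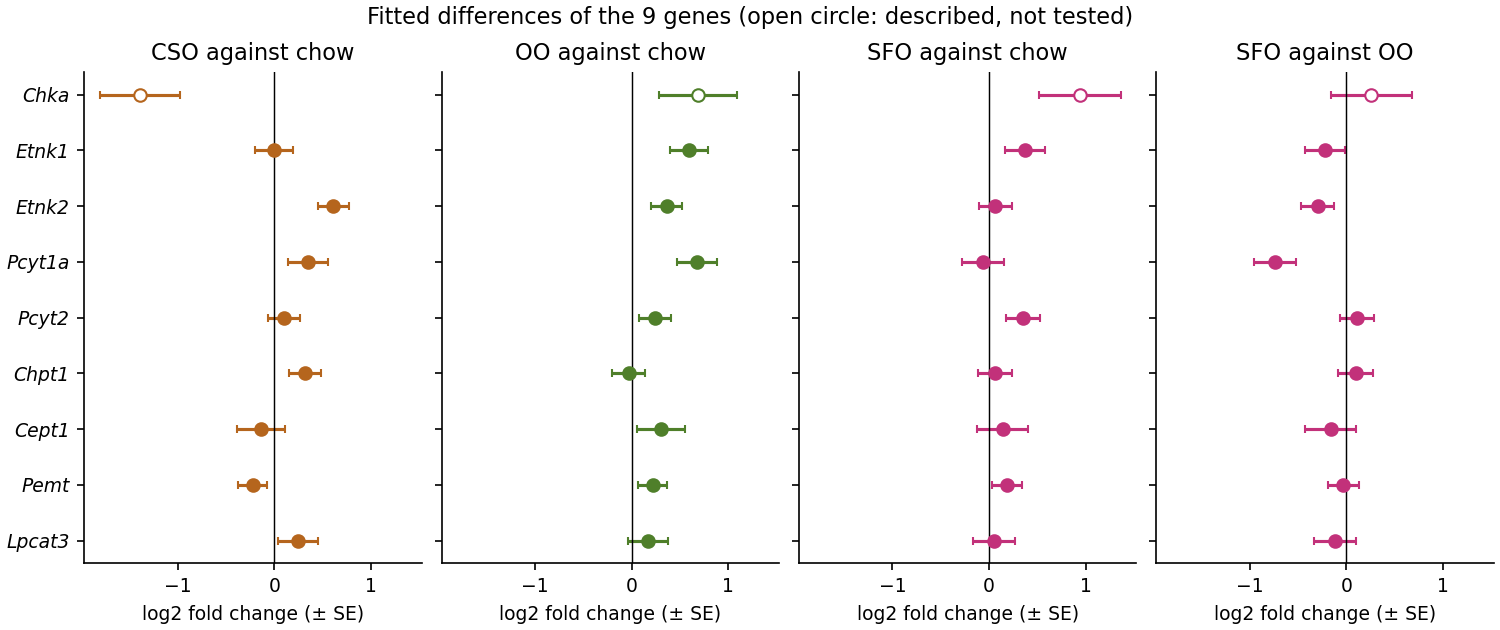
Log2 fold changes (x axis, with SE bars) of the 9 genes in 4 comparisons, from the edgeR fit of all 23 libraries, with Chka as an open circle because it was not tested. Chka lies at -1.40 for CSO and at 0.68 and 0.94 for OO and SFO, and Pcyt1a lies at 0.67 for OO against chow and at -0.74 for SFO against OO.

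Chka also varied more within a diet than the other genes of the set. Its SD within diets was 0.837 on the log2 scale, against 0.206 for Pemt, the lowest, and 0.366 for Lpcat3, the next highest. It was above 88.2% of the 5750 tested genes whose mean log2 CPM reached 4, and the median of those genes was 0.537. Chka, at a mean log2 CPM of 4.62, lay near that cut. Among all 11971 tested genes its SD was above 45.6%, and their median was 0.916. The highest Chka level was 7.14 times the lowest in OO and 8.55 times in SFO, against 2.29 times in chow, while the CSO livers spanned 3.03 times.

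A score of circadian clock genes was on average highest in CSO, where Chka was lowest. This clock score was formed as the mean log2 CPM of Per2, Per3, Tef, Dbp and Ciart minus that of Clock, Arntl and Nfil3, 2 sets of clock genes that peak at opposite times in mouse liver. The list came from an earlier analysis of these data. The score averaged 2.56 ± 0.80 in CSO, -0.20 ± 1.67 in OO and 0.18 ± 2.25 in SFO, against 0.21 ± 1.42 in chow (SD, n = 6, SFO n = 5). With the score as a covariate, a setting chosen after the data were seen, the Chka difference between CSO and the averaged OO and SFO diets was -1.38 in place of -2.21, and that between CSO and chow was -0.72 in place of -1.40. This fit used a single slope for all diets, while the relation within single diets differed in sign, as given below. The scores of CSO and chow did not overlap, with a lowest CSO score of 1.26 and a highest chow score of 1.25. The part of clock phase in the Chka result was not tested.

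The Chka level was compared with the score and with each of the 8 other genes over the 23 libraries, after the mean of each diet was taken off, as 9 relations with 100000 permutations within diets each. With the clock score Pearson's r was -0.51 (permutation p = 0.0472, adjusted p = 0.158) and Spearman's rho was -0.18 (permutation p = 0.457, adjusted p = 0.685). Without OO 2 and SFO 5, r was -0.33 (permutation p = 0.224). These libraries had the scores farthest from the median once the diet means were taken off. The relation was thus weaker without the most extreme scores, and leaving those out also narrows the range of the score. Within single diets r was 0.69 in CSO, -0.50 in OO and -0.73 in chow (n = 6 each, two-sided exact permutation p = 0.156, 0.347 and 0.128). For SFO, with 5 libraries, no r was computed. From the highest to the lowest Chka level, SFO 5, 1, 6, 3 and 2 had scores of -2.74, -0.69, -0.49, 2.84 and 2.01, so the 3 livers with most Chka had lower scores than the other 2.

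**Figure D3:**
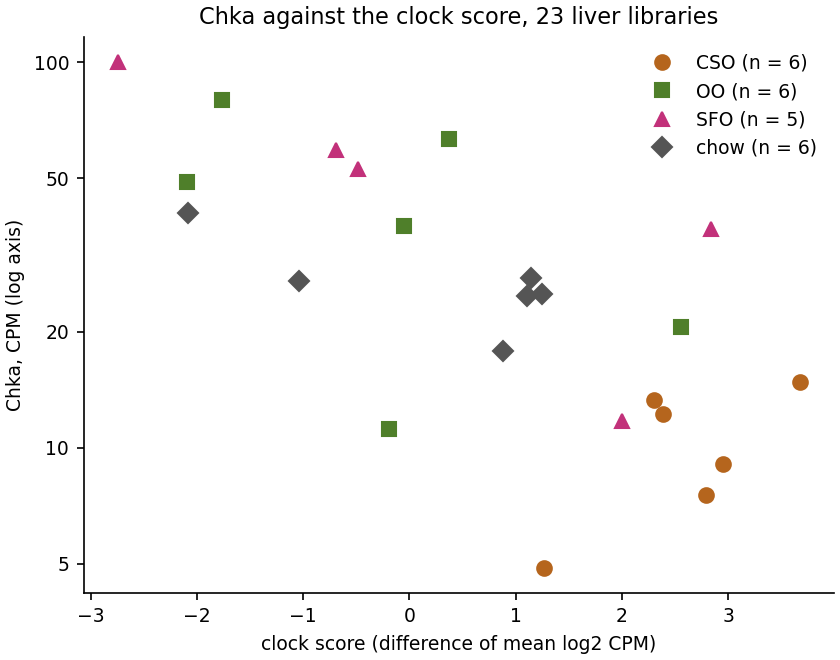
Chka level in CPM (log axis) against the clock score (difference of mean log2 CPM) in each of the 23 libraries, by diet. The 6 CSO points lie between scores of 1.26 and 3.67 and at 14.8 CPM or lower, and the highest Chka level, 100.2 CPM in SFO 5, belongs to the lowest score, -2.74.

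The lowest r of Chka among the 8 genes was with Etnk2. It was -0.58 (permutation p = 0.0184, adjusted p = 0.158), with a rho of -0.44 (permutation p = 0.0611, adjusted p = 0.319). Without CSO 5 and SFO 5, the libraries farthest from the median of Etnk2 once the diet means were taken off, r was -0.41 (permutation p = 0.182). Without OO 3 alone, which had the fewest detected genes of all libraries (10615), r was -0.79 (permutation adjusted p = 0.00234). Of the 23 libraries, OO 3 was the only one whose omission brought the relation past the threshold. That adjusted p covers the 9 relations but not the choice of OO 3 among the libraries. Within single diets r was -0.74 in CSO, -0.22 in OO and -0.31 in chow (n = 6 each, two-sided exact permutation p = 0.167, 0.664 and 0.572). For SFO no r was computed, and from the highest to the lowest Chka level, SFO 5, 1, 6, 3 and 2 had 178, 215, 252, 338 and 354 CPM of Etnk2, a fully opposite order. None of the 9 relations passed the correction over all 23 libraries.

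**Figure D4:**
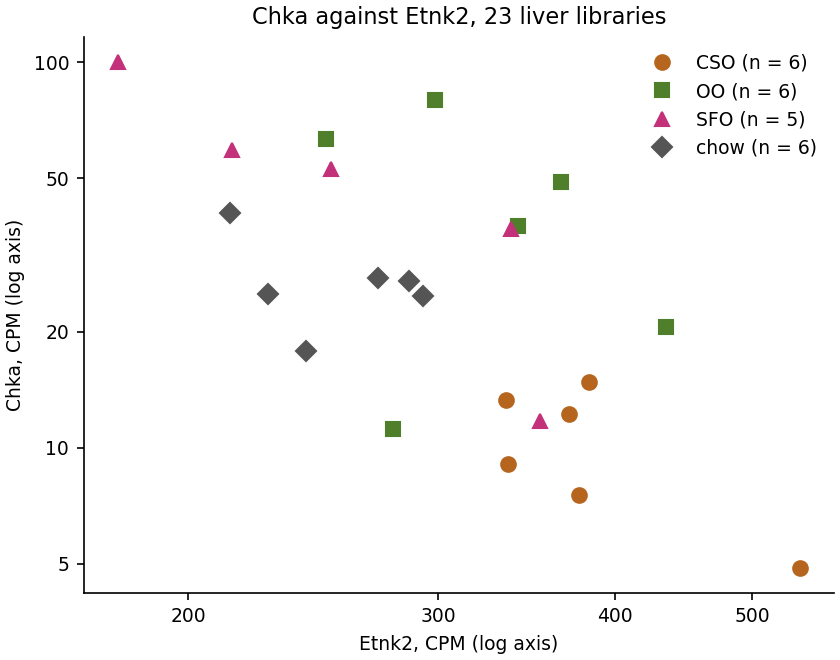
Chka level against Etnk2 level in each of the 23 libraries, by diet, both in CPM on log axes. CSO 5, at 4.89 CPM of Chka and 540 CPM of Etnk2, and SFO 5, at 100.2 and 178 CPM, lie at opposite corners.

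The adipocyte marker list has 3 of its 5 genes in the table, Cidec, Fabp4 and Lep, and their summed level ran from 23.04 to 62.0 CPM in CSO, from 0.604 to 22.03 CPM in OO and from 4.83 to 24.1 CPM in SFO, against 7.60 to 96.7 CPM in chow. The median of Cidec was 24.9 CPM in CSO, 1.61 CPM in OO and 5.39 CPM in SFO, against 7.75 CPM in chow. That of Fabp4 was 5.42 CPM in CSO, 0.475 CPM in OO and 4.19 CPM in SFO, against 4.22 CPM in chow. The high sums in CSO were thus mainly Cidec. Lep, the adipocyte hormone, was at 0 in every library of the oil diets. The part of these transcripts in the Chka and Etnk2 levels was not tested.

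Among the genes most like Chka over the 23 libraries, out of the 5665 genes at or above 4 in mean log2 CPM, were Caprin1 (r = 0.74), Atf5 (0.74), Pde9a (0.74) and Crp (0.72). These values include the differences between diets, which all such genes share. After the diet means were taken off, the 5 most like genes were others: Slc35e1 (r = 0.84), Pigk (0.80), Nf2 (0.80), Psma2 (0.79) and Ino80 (0.77). For Pcyt2 the genes most like it were Hgfac (0.88), Krt18 (0.77), Flad1 (0.77), Camta2 (0.75) and Gcn1 (0.73) over libraries, and Hgfac (0.88), Krt18 (0.79), Cyp2d13 (0.77), Flad1 (0.76) and Gcn1 (0.76) after the diet means were taken off. All of these are descriptions over 23 libraries that share depth and scaling.

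Around these genes, 77 other genes of phospholipid metabolism were listed in 9 groups, of which 72 had a row in the table and 65 were tested. For CSO against chow 0 of the 65 passed with edgeR, where 0.409% of all tested genes passed. DESeq2 called 1 of the 65 there, where it called 4.33% of the genes with an adjusted p. Limma voom called 2, where it called 1.8% of the tested genes. For OO against chow 3 rose and 0 fell with edgeR, where 2.64% of all tested genes passed, and the number called ran from 0 to 10 over the alternatives. For SFO against chow 0 rose and 1 fell with edgeR, where 0.835% passed, and for SFO against OO 0 passed, where 1.06% passed. In the last comparison DESeq2 called 1 of the 65, where it called 3.67% of the genes with an adjusted p, and limma voom called 0. At an unadjusted p under 0.05 the 65 genes gave 7, 18, 4 and 17 genes in these comparisons, beside 5.32%, 16.1%, 7.74% and 15.3% of all tested genes. The median log2 difference of the 65 genes was 0.11, 0.11 and -0.06 for the CSO, OO and SFO diets set against chow, and -0.21 for SFO against OO, beside -0.02, 0.07, 0.01 and -0.04 over all tested genes.

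In the supply of phosphatidic acid and diacylglycerol, 2 of 12 tested genes rose in OO. Gpam, the mitochondrial glycerol-3-phosphate acyltransferase, had a mean of 504 ± 127 CPM in OO, against a mean of 327 ± 32.9 CPM in chow (SD, n = 6 each), a log2 difference of 0.62 ± 0.17 (edgeR adjusted p = 0.0317). Agpat2, which makes phosphatidic acid from lysophosphatidic acid, had a mean of 218 ± 53.6 CPM in OO livers and of 135 ± 11.4 CPM in chow livers, and all 6 OO livers lay above all chow livers, as for 1.75% of the tested genes in either direction (log2 difference 0.69 ± 0.17, edgeR adjusted p = 0.0211). In choline oxidation, 1 of 6 tested genes rose in OO: Sardh, the sarcosine dehydrogenase, had a mean of 1461 ± 232 CPM in OO livers and of 1103 ± 140 CPM in chow livers (log2 difference 0.41 ± 0.12, edgeR adjusted p = 0.0448). Without the 4 libraries with Acta1 over 100 CPM, 3 of them from chow, the edgeR adjusted p-values were 0.222 for Gpam, 0.217 for Agpat2 and 0.414 for Sardh. The log2 differences were then 0.68, 0.73 and 0.36. Leaving out 1 library also ended the call of Gpam (without chow 1, 2, 4 or 5 or OO 5, adjusted p up to 0.0753), of Agpat2 (without OO 3, 0.0612) and of Sardh (without any of chow 1 to 5 or OO 1 to 4, up to 0.123).

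Among the other genes of the CDP routes, Etnppl, which breaks down the phosphoethanolamine that the ethanolamine kinases make, fell in SFO. Its level was 65.5 ± 35.2 CPM in SFO (SD, n = 5), against 196 ± 64.0 CPM in chow (SD, n = 6), a log2 difference of -1.58 ± 0.38 (edgeR adjusted p = 0.0432). The call ended without the 4 libraries (adjusted p = 0.0772) and without any of chow 1, 2, 5 or 6 or SFO 1, 5 or 6 (adjusted p up to 0.123). In CSO Etnppl averaged 70.6 ± 17.2 CPM and in OO 97.6 ± 58.9 CPM, with log2 differences from chow of -1.47 ± 0.36 (edgeR adjusted p = 0.0726) and -1.01 ± 0.35 (edgeR adjusted p = 0.122). The highest levels were 97.1 CPM in CSO and 103 CPM in SFO, against a chow minimum of 141 CPM. OO 3, at 201 CPM, was the liver on an oil diet above that minimum. In either direction, 1.44% of the tested genes separated all CSO from all chow livers, and 1.59% all SFO from all chow livers.

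Of the groups without a called gene, 5 are given by their most expressed member. Ptdss1, a phosphatidylserine synthase, averaged 48.9 ± 16.0, 58.3 ± 31.7 and 34.6 ± 16.3 CPM in CSO, OO and SFO, against 49.4 ± 8.14 CPM in chow. Cds2, which makes CDP-diacylglycerol, averaged 84.2 ± 18.9, 135 ± 43.8 and 99.6 ± 18.9 CPM in CSO, OO and SFO, against 86.2 ± 11.7 CPM in chow. All 6 OO livers had more Cds2 than any chow liver, by a narrow margin, with a lowest OO level of 99.01 CPM against a highest chow level of 99.0007 CPM, and the log2 difference was 0.65 ± 0.21 (edgeR adjusted p = 0.0796). Such a separation of OO from chow, in either direction, was seen in 1.75% of the tested genes. The other oil-diet groups of both genes overlapped with chow.

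Lpgat1, a lysophosphatidylglycerol acyltransferase, averaged 310 ± 47.4 CPM in CSO, 259 ± 87.0 in OO and 376 ± 59.6 in SFO, against 259 ± 34.8 in chow. Gpcpd1, which splits glycerophosphocholine, averaged 357 ± 40.6 CPM in CSO, 201 ± 99.5 in OO and 249 ± 97.2 in SFO, against 213 ± 44.7 in chow, and its log2 difference between CSO and chow was 0.75 ± 0.23 (edgeR adjusted p = 0.276). Its 6 CSO livers, from 321 to 424 CPM, lay above every chow liver, the highest of which had 273 CPM, a separation that 1.44% of the tested genes showed in either direction. Stard10, a phospholipid transfer protein, averaged 800 ± 105, 853 ± 40.1 and 835 ± 123 CPM in CSO, OO and SFO, against 806 ± 66.7 CPM in chow.

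Gpat3, another glycerol-3-phosphate acyltransferase, was picked out after its values were seen. It averaged 21.1 ± 8.13 CPM in CSO, 1.23 ± 1.16 CPM in OO and 4.42 ± 3.69 CPM in SFO, and 7.42 ± 4.48 CPM in chow. The log2 difference between CSO and the averaged OO and SFO diets was 3.16 ± 0.61, given without a test because Gpat3 was picked in the comparison that chose the genes. The differences of CSO and of OO from chow, 1.51 ± 0.72 and -2.57 ± 0.76, share the CSO and OO libraries with that pick and are given in the same way.

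**Figure D5:**
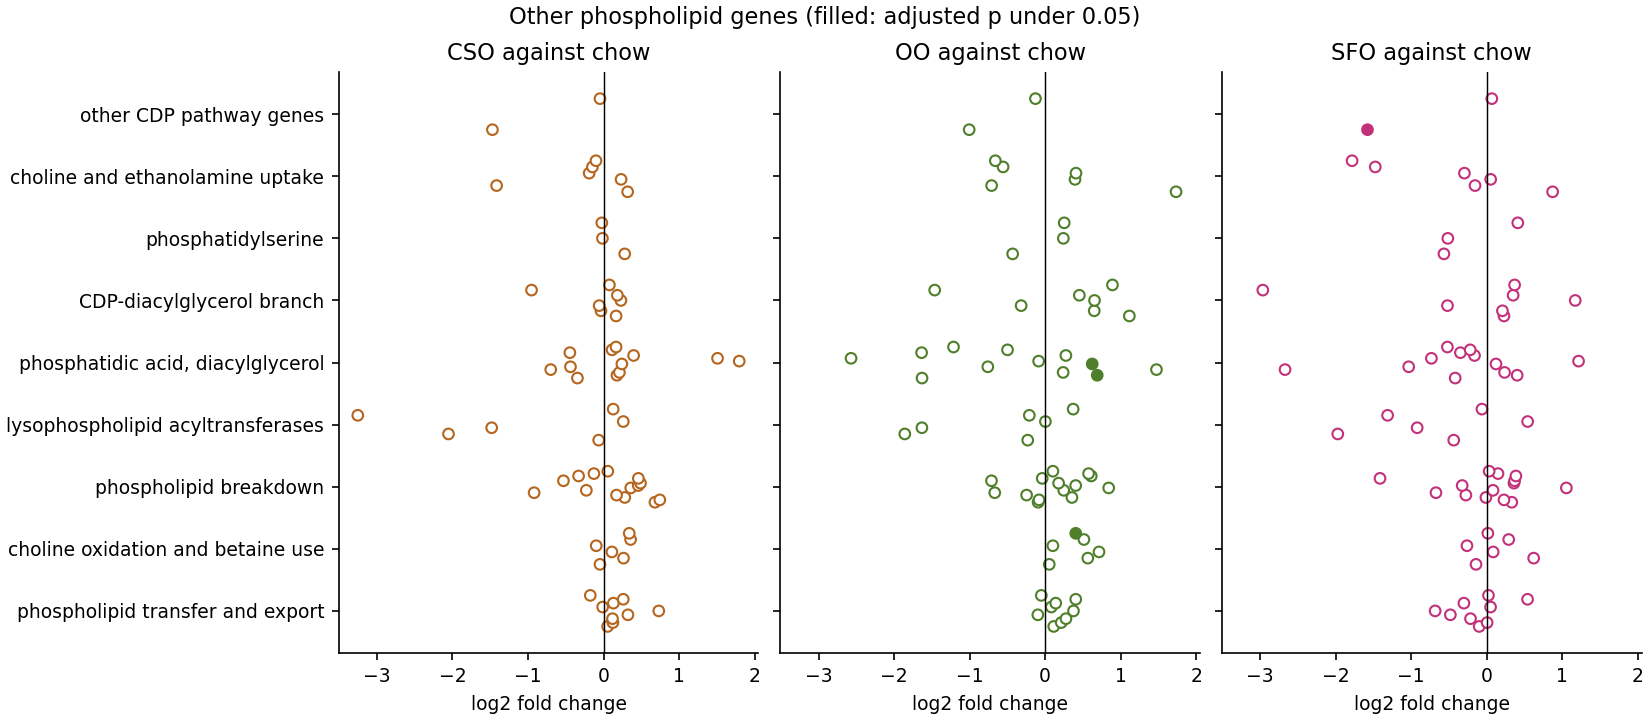
Log2 fold changes against chow (x axis) of the 65 tested genes of phospholipid metabolism outside the set, by gene group (rows) and oil diet (panels), with filled points for an adjusted p under 0.05 with edgeR. The filled points are 3 for OO, all right of 0, and 1 for SFO, left of 0 at -1.58, with none for CSO.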

How the data were processed

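Liver RNA with an integrity number above 7.0 was made into QuantSeq 3′ libraries, per the labels' protocols. Per the submitters' processing notes, the tools were Trimmomatic, STAR 2.7.1a, HTSeq 0.9.1, DESeq2 and DESeq on mm39; no source used here gives the strand setting or the filter on low counts. The authors deposited raw counts per gene for 23 libraries, and DESeq2 tables of each oil against chow with the log2 fold change and its SE, a mean signal (counts over size factors), a Wald score and p-values. The deposited log2 values run chow over oil and were turned here after a check against the counts.

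From the counts, edgeR 4.0.16 (TMM, filterByExpr, robust quasi-likelihood) fitted the 4 diets together and adjusted p over 11971 genes. DESeq2 1.42.0 and limma 3.58.1 (voom) were alternatives, and the scripts were tested on simulated counts. A log2 level carries a prior count of 2. The members, lists and tests were chosen with earlier results of these data known. Named genes are the members, up to 3 called genes per list and comparison (else the most expressed), and the 5 most like Chka and Pcyt2; some of these are not reported here. Sequences are from RefSeq, GRCm38.p6, matched by symbol for 8 of the 9 genes. No 2 libraries held identical counts. The labels' replicate numbers do not pair the mice. Alternatives covered scaling, filtering, tools, the replicate block and each library left out. The clock score and the omission of the 4 libraries with Acta1 over 100 CPM were added after the data were seen.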

Additional observations from a re-analysis of the deposited data

Results flagged for a closer look

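In 36 groups (9 genes in 4 diets), the most extreme library was set against the others by its gap over the range of the group, a rule that flags about 1 group in 20 by chance, and 3 groups were flagged. Etnk2 in CSO 5 was 540 CPM, while the other 5 CSO livers had 335 to 383 CPM. CSO 5 also had the lowest Chka level of all libraries, 4.89 CPM. Lpcat3 in OO 3 was 242 CPM, while the other 5 OO livers had 104 to 143 CPM. OO 3 had the fewest detected genes of all libraries, 10615, and the lowest scaling factor, 0.811. Etnk1 in chow 3 was 79.9 CPM, while the other 5 chow livers had 106 to 119 CPM. Chow 3 is 1 of the 4 libraries with Acta1 over 100 CPM, at 461 CPM. Whether these features account for the values was not tested.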

How the results depend on the processing

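Of the 8 genes other than Chka, edgeR called 0 in each comparison. DESeq2 called 1 for CSO against chow, 2 for OO against chow and 1 for SFO against OO. Limma voom called 1 for CSO against chow, and so did the fit of those diets alone, which holds fewer samples. Leaving out 1 library gave 0 to 1 called genes for OO against chow and 0 to 1 for SFO against OO. With the replicate number as a block, 0 of the 8 were called in every comparison, and Sardh in OO lost its call (adjusted p = 0.0652). Libraries with the same number in different diets had correlations of -0.101 to 0.0346 over 33 pairs, and 1 of 23 libraries correlated best with its own number, so the block has no basis as a pairing. The Chka difference between CSO and the averaged OO and SFO diets ran from -2.34 to -1.38 over the alternatives, the last with the clock score as a covariate. That comparison chose Chka, so these runs show how far the value moves and are no test of it. Counts over all genes moved widely across alternatives: 14 to 215 for CSO against chow (49 in the fit reported), 26 to 716 for OO (316), 34 to 207 for SFO (100) and 2 to 464 for SFO against OO (127). The lowest counts of the first 3 comparisons came without the 4 libraries with Acta1 over 100 CPM. The counts over the 65 other phospholipid genes ran from 0 to 3, 0 to 10, 0 to 2 and 0 to 3. Gpam, Agpat2 and Sardh lost their calls in OO with library totals as scaling (adjusted p = 0.167, 0.113 and 0.333 with edgeR) and in a fit of OO and chow alone (0.0519, 0.0626 and 0.115). Agpat2 and Sardh also lost them with limma voom (0.122 and 0.206), and Sardh with DESeq2's size factors (0.0515). Etnppl in SFO lost its call with no filter (0.0551), with the clock score as a covariate (0.0504) and in a fit of SFO and chow alone (0.0585). Uncalled differences of the set smaller than their SE changed sign 31 times and are not read as reversals. Chka, with 62 to 172 counts in CSO libraries, has the lowest counts of the set. Beyond fewer samples or genes, the cause of these shifts was not tested.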
